A study of Mus musculus with 24 samples.

Results

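The genes examined encode the deubiquitinases known to remove H2AK119ub1, the monoubiquitin on the C-terminal tail of histone H2A, together with the partners that switch one of them on. They are Bap1, its partner genes Asxl1, Asxl2 and Asxl3, and the genes Usp16, Usp21, Usp3 and Mysm1. The 8 members were chosen by name and not by a measured value, although earlier results of these data were known. Each had a single row among the 20633 transcripts (19409 gene symbols) of the table, and all 8 were among the 16940 transcripts with enough reads to be tested (at least 10 reads in at least 3 libraries).

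H2AK119ub1 is placed by Polycomb repressive complex 1 (PRC1), whose catalytic subunit is RING1A or RING1B, and it marks repressed developmental genes in embryonic stem cells (ESCs) as well as much of the genome at a low level. BAP1 is a ubiquitin C-terminal hydrolase that works only with an ASXL protein, which completes its active site, and the complex is known as PR-DUB. USP16, USP21 and USP3 are cysteine proteases of the ubiquitin-specific protease (USP) family, and MYSM1 is a zinc metalloprotease of the JAMM family.

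Calibrated RNA-seq (cRNA-seq) was performed on 2 mouse ESC lines of the E14 background, each represented by 1 clone and each carrying tamoxifen-inducible Cre at Rosa26. PRC1CKO cells lack Ring1a (Ring1a-/-) in every condition, and the tamoxifen derivative OHT deletes their floxed Ring1b (Ring1b fl/fl). PRC1CPM cells carry inactive RING1A (I50A/D53K) in every condition, and OHT inverts a cassette at Ring1b so that wild-type RING1B is replaced by an inactive form (I53A/D56K). Cells were untreated (UNT) or received 800 nM OHT for 72 h, with 3 replicates of each of the 4 conditions, and were mixed with Drosophila SG4 cells before RNA was extracted. No condition was wild type for both RING1 proteins. The values given are normalised read counts, which are reads per gene divided by a factor from the Drosophila reads, and the table defines each gene by its whole body, introns included.

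Sequencing depth was 14668159 to 27016156 reads on genes per library. Replicate 1 had the highest normalised total in all 4 conditions, with 24958331, 22092158, 24373383 and 26077686 normalised reads in PRC1CKO UNT, PRC1CKO OHT, PRC1CPM UNT and PRC1CPM OHT, against 17618069 to 21836456 in the other libraries. The ratio of the highest to the lowest total was 1.42, 1.13, 1.28 and 1.46 in the same order. All 8 genes were highest in replicate 1 in PRC1CKO UNT, PRC1CPM UNT and PRC1CPM OHT cells, and 5 of the 8 were in PRC1CKO OHT cells. Values without replicate 1 are therefore given wherever they change a call of any of the 8 genes. For the other genes named below, calls without replicate 1 were not examined.

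The targeted genes do not check the treatment labels. For the gene of RING1B, reads were counted over a gene body of which only a part is deleted or inverted. The gene of RING1A is changed with and without OHT, by a partial deletion in PRC1CKO and by point mutations in PRC1CPM cells. Ring1, which encodes RING1A, had 313, 204 and 166 normalised reads in replicates 1, 2 and 3 of PRC1CKO UNT cells and 281, 251 and 229 after OHT treatment. In PRC1CPM cells Ring1 had 179, 182 and 125 before and 161, 111 and 148 after OHT treatment. Rnf2, which encodes RING1B, had 1756, 1436 and 1385 in PRC1CKO UNT and 1489, 1565 and 1585 in PRC1CKO OHT cells. In PRC1CPM cells Rnf2 had 1850.1, 1659 and 1578 before and 1724, 1295 and 1513 after treatment. Neither gene was called in either line, and for both the treated and untreated values overlapped. Between the treated lines Ring1 differed by -0.86 on the log2 scale, PRC1CPM relative to PRC1CKO, and was not called (adjusted p = 0.156, limma). The pluripotency markers were abundant in every library, with a summed level of 37171 to 84310 normalised reads for 7 of the 8 genes listed, of which Tdgf1 was the most abundant and none was at 0.

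Expression of Asxl3 rose after OHT treatment in both lines, by 1.93-fold in PRC1CKO and 1.88-fold in PRC1CPM cells, and it was the only one of the 8 genes to pass the test in either line. A gene was called where limma gave an adjusted p below 0.05 together with a change of more than 1.5-fold. One of the 8 members was called higher and 0 lower in PRC1CKO cells, where 16.5% of all genes tested were called higher and 3.09% lower (19.5% in either direction). The count was the same in PRC1CPM cells, where 13.1% of all genes were called higher and 1.4% lower (14.5% in either direction). Called higher in both lines were 1 member and 11.6% of all genes. At an unadjusted p under 0.05 there were 2 members in each line, Asxl3 and Usp3, beside 28.1% of all genes in PRC1CKO and 22.9% in PRC1CPM cells, and edgeR and DESeq2 on the recovered reads each called 1. A single member of 8 is close to these shares, so the count of the group is not a result about these genes. The background depended on the scale, with 2787 genes higher and 524 lower in PRC1CKO and 2226 and 237 in PRC1CPM cells on the spike-in scale, and 2845 and 1133 and 2396 and 595 on the TMM scale, which sets the typical gene near 0. A fit blocked on replicate number called 3033 genes higher and 461 lower in PRC1CPM cells.

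Across the 8 genes the median log2 fold change was 0.04 in PRC1CKO cells, beside 0.12 over all genes tested, and 0.10 in PRC1CPM cells, beside 0.10 over all genes. In PRC1CKO cells 4 members lay above 0 and 4 below, and in PRC1CPM cells 5 lay above and 3 below, although the signs of Bap1 in PRC1CKO cells and Mysm1 in PRC1CPM cells turn with the scale. All treated values lay above all untreated values for 2 members (Asxl3 and Usp3) in each line, beside 22.1% of all genes in PRC1CKO and 18.7% in PRC1CPM cells, and 15.1% in both. All treated values lay below for 2 members (Asxl1 and Usp21) in PRC1CKO cells, beside 8.52% of all genes, and for 0 in PRC1CPM cells, beside 3.7%.

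**Figure D1:**
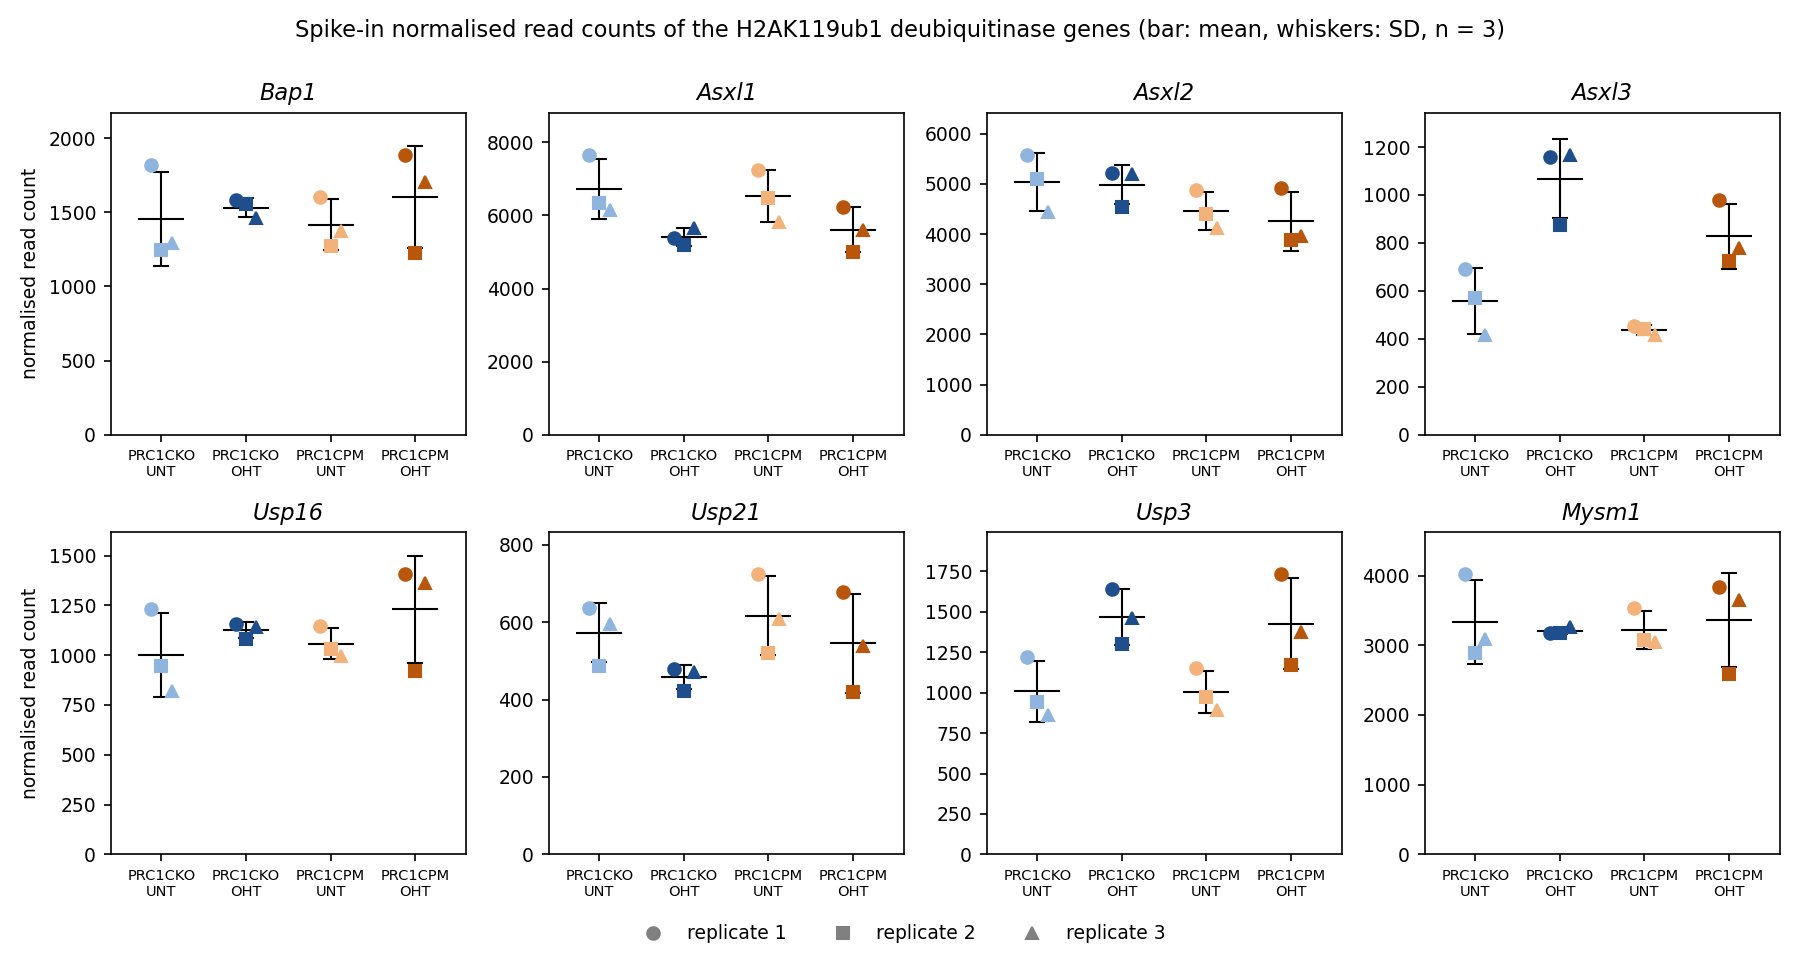
Normalised read counts (vertical axes, starting at 0) of the 8 genes in each of the 12 libraries, by condition (horizontal axes). Markers give the replicate number, bars the mean and whiskers the SD of 3 replicates. Asxl3 and Usp3 are the genes whose treated values all lie above the untreated values in both lines, and circles (replicate 1) are often the highest points.

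Asxl3 (NM_001167777, chr18:22345089-22530227 in mm10, plus strand, 14 exons) encodes the ASXL partner of BAP1 that is best known from neurodevelopmental disease. It was the least abundant of the 8 genes per length and still had 307 to 1339 reads in each library. Normalised reads of Asxl3 were 689.7, 569 and 417 in replicates 1, 2 and 3 of PRC1CKO UNT cells and 1158, 877 and 1168 in PRC1CKO OHT cells. In PRC1CPM cells they were 455, 439 and 416 before treatment and 981, 723 and 778 after it. The lowest treated value exceeded the highest untreated value in each line, and the 2 highest values were in treated PRC1CKO cells. The means were 559 ± 137 (SD, n = 3) and 1068 ± 165 in PRC1CKO UNT and OHT cells and 437 ± 19.6 and 827 ± 136 in PRC1CPM UNT and OHT cells.

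The log2 fold change of Asxl3 was 0.95 (SE 0.24, 95% confidence interval 0.47 to 1.43, adjusted p = 0.00213, limma) in PRC1CKO cells and 0.91 (SE 0.24, 0.43 to 1.39, adjusted p = 0.00481) in PRC1CPM cells. Relative to the median of all genes tested, the changes of Asxl3 were 0.84 and 0.81 on the log2 scale. Of the genes tested, 84.2% had a lower log2 fold change than Asxl3 in PRC1CKO and 85.5% in PRC1CPM cells. Libraries with the same replicate number differed by 0.75, 0.62 and 1.48 on the log2 scale in PRC1CKO cells and by 1.11, 0.72 and 0.90 in PRC1CPM cells, all upwards. Here and below, the share of all genes whose same-numbered pairs all moved in the same direction was not counted. With any 1 library left out the change of Asxl3 stayed between 0.76 and 1.12 in PRC1CKO cells and between 0.78 and 1.00 in PRC1CPM cells, and it remained called in all 12 such fits, each replicate 1 library left out in turn included. Among the alternatives run, the call was lost only where a fold change above 2 was asked for.

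**Figure D2:**
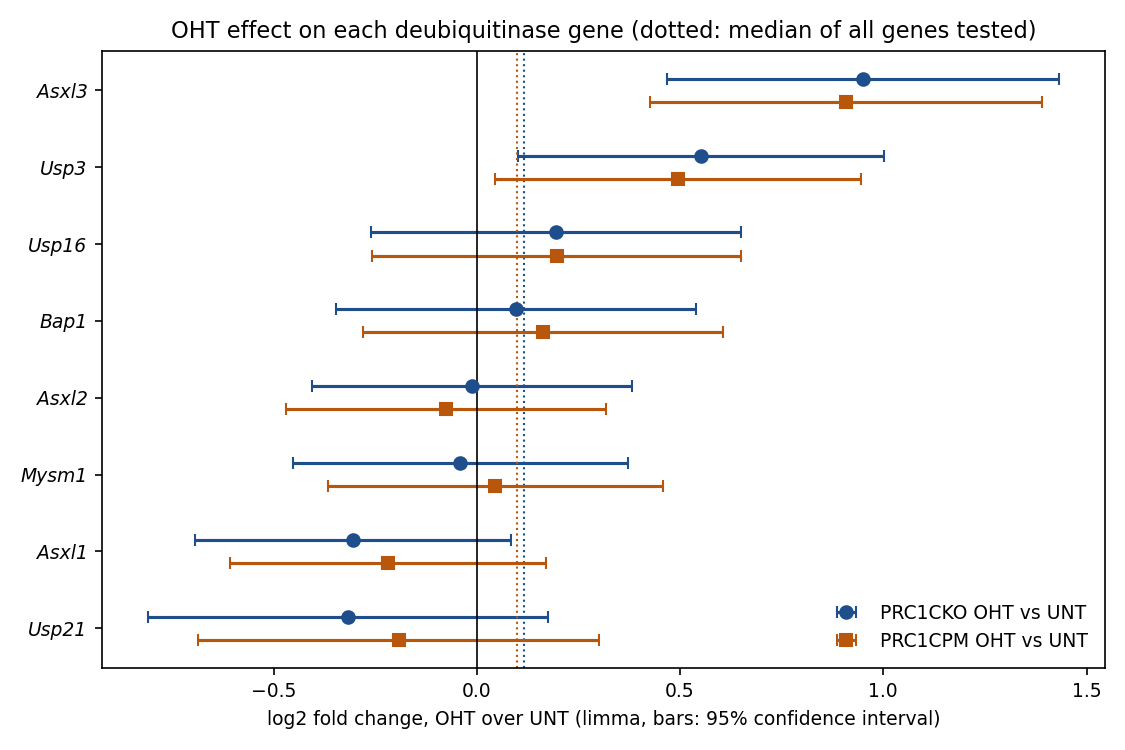
Log2 fold change after OHT treatment (horizontal axis, OHT over UNT) of each gene (vertical axis), in PRC1CKO cells (circles) and PRC1CPM cells (squares), from limma with 95% confidence intervals. Dotted lines are the medians of all genes tested (0.12 and 0.10). The interval of Asxl3 begins at 0.47 and 0.43, and the intervals of the 6 genes other than Asxl3 and Usp3 include 0.

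Asxl1 (NM_001039939, chr2:153346139-153404007, plus strand, 13 exons) encodes the ASXL protein most often mutated in myeloid leukaemia, and it was the most abundant ASXL gene. Its normalised reads were 7662, 6336 and 6147 in PRC1CKO UNT and 5374, 5194 and 5668 in PRC1CKO OHT cells, with every treated value below every untreated one. In PRC1CPM cells Asxl1 had 7256, 6486 and 5826 before and 6221, 4986 and 5611 after treatment, and these ranges overlapped. The log2 fold changes of Asxl1, -0.31 (SE 0.19, -0.69 to 0.08, adjusted p = 0.333) and -0.22 (SE 0.19, -0.61 to 0.17, adjusted p = 0.626), did not pass the limma test. Libraries with the same replicate number differed by -0.51, -0.29 and -0.12 on the log2 scale in PRC1CKO cells and by -0.22, -0.38 and -0.05 in PRC1CPM cells, all downwards. Of the genes tested, 15.0% had a lower log2 fold change than Asxl1 in PRC1CKO and 16.4% in PRC1CPM cells.

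Asxl2 (NM_001270988, chr12:3426857-3506849, plus strand, 13 exons), the third ASXL gene, had overlapping values in both lines. Its normalised reads were 5581, 5090.0 and 4444 in PRC1CKO UNT, 5222, 4543 and 5193 in PRC1CKO OHT, 4871, 4406 and 4121 in PRC1CPM UNT and 4921, 3878 and 3953 in PRC1CPM OHT cells. The log2 fold changes of Asxl2 were -0.01 (-0.41 to 0.38) and -0.08 (-0.47 to 0.32). Those intervals leave room for a change of about the size seen for Asxl1 and none for one as large as the estimates for Asxl3.

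Because the 3 ASXL proteins are alternative partners of BAP1, the division of reads among their genes within each library was also followed, a measure that no scaling of the libraries can change. Asxl3 took 4.49% ± 0.62 (SD, n = 3) of ASXL reads in PRC1CKO UNT and 9.27% ± 0.88 in PRC1CKO OHT cells. In PRC1CPM cells its share was 3.84% ± 0.20 before and 7.72% ± 0.32 after treatment. The highest untreated share of Asxl3 was 4.95% and the lowest treated share 7.52%, so no treated library overlapped an untreated one in either line. Asxl1 went from 54.6% ± 1.6 to 47.3% ± 1.6 in PRC1CKO and from 57.0% ± 0.74 to 52.5% ± 1.5 in PRC1CPM cells, also without overlap within either line. Asxl2 went from 41.0% ± 1.3 to 43.5% ± 0.85 and from 39.1% ± 0.56 to 39.8% ± 1.3, with overlap in PRC1CPM cells and none in PRC1CKO cells. A share can move because another gene of the set moved, and with 3 libraries against 3 an exact permutation test cannot give a p below 0.1, so the shares are a description.

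**Figure D3:**
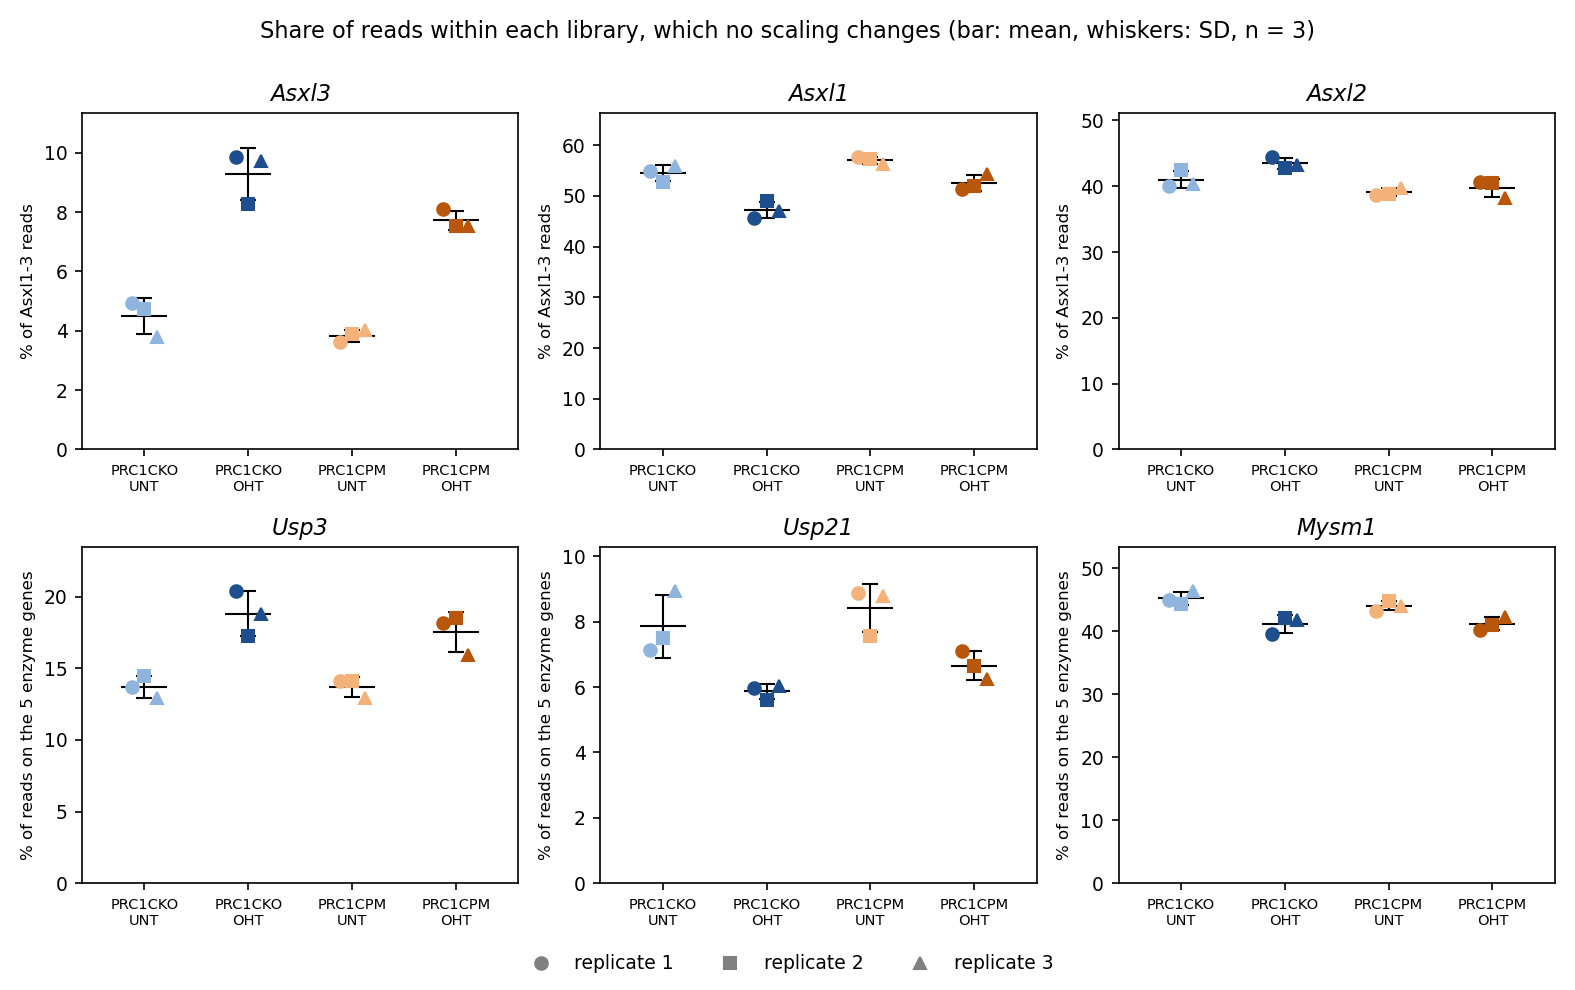
Share of the reads on Asxl1, Asxl2 and Asxl3 (upper row) and of the reads on the 5 enzyme genes Bap1, Usp16, Usp21, Usp3 and Mysm1 (lower row) taken by the named gene in each library (vertical axes in percent, starting at 0), by condition. Bars are means and whiskers SDs of 3 replicates. The treated shares of Asxl3 lie between 7.52% and 9.85%, above all untreated shares.

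Bap1 (NM_027088, chr14:31251489-31259929, plus strand, 17 exons), the catalytic subunit of PR-DUB, was not called in either line. Normalised reads of Bap1 were 1819, 1247 and 1292 in PRC1CKO UNT and 1582, 1553 and 1459 in PRC1CKO OHT cells, 1606, 1273 and 1372 in PRC1CPM UNT and 1888, 1223 and 1704 in PRC1CPM OHT cells. The treated values lay inside or across the untreated range in both lines. Its log2 fold changes were 0.10 (SE 0.22, -0.35 to 0.54, adjusted p = 0.853, limma) and 0.16 (SE 0.22, -0.28 to 0.61, adjusted p = 0.794), so a change of up to about the size of the call threshold cannot be set aside at this spread. Among the 5 enzyme genes, Bap1 took 19.6% ± 0.65 and 19.7% ± 0.94 of the reads in PRC1CKO UNT and OHT cells and 19.4% ± 0.71 and 19.6% ± 0.25 in PRC1CPM UNT and OHT cells.

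Usp3 (NM_001302116, chr9:66514639-66593115, minus strand, 14 exons), which acts on ubiquitinated H2A and H2B, had the next largest changes. Normalised reads of Usp3 were 1220.0, 941 and 863 in PRC1CKO UNT and 1642, 1300.5 and 1464 in PRC1CKO OHT cells. In PRC1CPM cells they were 1151, 971 and 892 before and 1732, 1174 and 1374 after treatment. Treated and untreated values did not overlap in either line, although in each the lowest treated value stood close above the highest untreated one, that of replicate 1. The log2 fold change of Usp3 was 0.55 (SE 0.22, 0.10 to 1.00, adjusted p = 0.0784, limma) in PRC1CKO and 0.50 (SE 0.22, 0.05 to 0.94, adjusted p = 0.156) in PRC1CPM cells, so it did not pass the test. Same-numbered libraries differed by 0.43, 0.47 and 0.76 on the log2 scale in PRC1CKO cells, all upwards. In PRC1CPM cells they differed by 0.59, 0.27 and 0.62, also upwards. With replicate number as a block the adjusted p of Usp3 was 0.000296 and 0.00171 (limma). Its changes stayed under the limit of 1.5-fold, so it was not called. Without replicate 1 of the PRC1CKO UNT cells, the library with the highest total of that group, the log2 fold change of Usp3 was 0.70 with an adjusted p of 0.0154, and Usp3 was called in PRC1CKO cells. Without that library the median of all genes also went from 0.12 to 0.29 and the genes called higher from 2787 to 3729, and relative to the median Usp3 was at 0.40 in place of 0.44. Without replicate 1 of the PRC1CPM OHT cells the median of all genes in PRC1CPM cells went from 0.10 to -0.04. The genes called higher went from 2226 to 1439. The log2 fold change of Usp3 in PRC1CPM cells was then 0.35 (adjusted p = 0.47, limma). Its share of reads on the 5 enzyme genes was 13.7% ± 0.74 and 18.8% ± 1.6 in PRC1CKO UNT and OHT cells, and 13.7% ± 0.70 and 17.5% ± 1.4 in PRC1CPM cells, without overlap in either line.

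Usp21 (NM_013919, chr1:171281953-171287961, minus strand, 13 exons), which is also known to deubiquitinate NANOG, lay at the other end of the order in PRC1CKO cells. Its normalised reads were 636, 488 and 595 in PRC1CKO UNT and 480.0, 423 and 470.2 in PRC1CKO OHT cells, with every treated value below every untreated one. In PRC1CPM cells Usp21 had 724, 519 and 607 before and 678, 419.8 and 538 after treatment, and the ranges overlapped. The log2 fold changes, -0.32 (SE 0.25, -0.81 to 0.18, adjusted p = 0.46) and -0.19 (SE 0.25, -0.68 to 0.30, adjusted p = 0.778), did not pass the limma test. All 6 differences between libraries with the same replicate number were below 0, from -0.09 to -0.41 on the log2 scale, and the share of all genes with such a pattern was not counted. Of the genes tested, 14.5% had a lower log2 fold change than Usp21 in PRC1CKO and 18.3% in PRC1CPM cells. As a share of reads on the 5 enzyme genes, Usp21 had 7.85% ± 0.96 and 5.87% ± 0.23 in PRC1CKO UNT and OHT cells and 8.41% ± 0.73 and 6.65% ± 0.43 in PRC1CPM UNT and OHT cells, without overlap.

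The stretches upstream of Usp3 and Usp21 are shown because these genes had the highest and the lowest log2 fold change in PRC1CKO cells among the 7 members with an entry in the RefSeq promoter table (GRCm38.p6). Each is the 250 bases before the annotated start, on the strand of the gene and read 5′ to 3′, at chr9:66593116-66593365 for Usp3 and chr1:171287962-171288211 for Usp21, with CpG dinucleotides in capitals.
Usp3: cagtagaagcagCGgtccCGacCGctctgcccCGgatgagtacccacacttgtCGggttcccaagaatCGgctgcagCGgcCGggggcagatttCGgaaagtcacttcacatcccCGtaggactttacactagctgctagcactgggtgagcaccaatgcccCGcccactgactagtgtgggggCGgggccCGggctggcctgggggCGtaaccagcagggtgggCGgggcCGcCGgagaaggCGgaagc
Usp21: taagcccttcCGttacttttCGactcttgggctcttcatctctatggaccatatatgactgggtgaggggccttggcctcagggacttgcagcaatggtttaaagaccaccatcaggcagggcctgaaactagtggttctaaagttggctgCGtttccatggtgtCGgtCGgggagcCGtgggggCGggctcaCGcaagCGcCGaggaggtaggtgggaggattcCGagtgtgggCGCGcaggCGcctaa
The Usp3 stretch holds 18 CpG dinucleotides and the Usp21 stretch 14. Over the full 300 bases of each entry, which run 50 bases past the start, the 7 members had 50 (Bap1), 36 (Asxl2), 25 (Mysm1), 22 (Usp3), 18 (Usp21), 17 (Usp16) and 13 (Asxl1) CpG dinucleotides, all above the median of 7 over 32851 promoters. The start of the Asxl1 entry lay 309 bases from that of its row. The E-box CACGTG, which reads the same on both strands, was found in the entries of Bap1, Asxl2 and Usp16 and in 7.15% of all promoters. The E2F-type motif TTCCCGC, searched on both strands, was found in that of Asxl1 and in 4.6% of all promoters.

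Usp16 (NM_024258, chr16:87454985-87483513, plus strand, 18 exons), an H2A deubiquitinase with known roles in mitosis, had overlapping values in both lines. Its normalised reads were 1230.4, 947 and 819 in PRC1CKO UNT and 1159, 1083 and 1139 in PRC1CKO OHT cells, 1146, 1029 and 996 in PRC1CPM UNT and 1405, 922 and 1364 in PRC1CPM OHT cells. The log2 fold changes were 0.19 (-0.26 to 0.65, adjusted p = 0.668, limma) and 0.20 (-0.26 to 0.65, adjusted p = 0.741). It is the only member whose gene body overlaps another gene, Cct8 on the opposite strand, over 189 bases, and whether reads were counted by strand is not given in the sources used here. Its share of reads on the 5 enzyme genes was 13.5% ± 1.1 and 14.5% ± 0.13 in PRC1CKO UNT and OHT cells and 14.5% ± 0.48 and 15.0% ± 0.67 in PRC1CPM UNT and OHT cells, with overlap in both lines.

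Mysm1 (NM_177239, chr4:94942041-94979100, minus strand, 20 exons), known for its role in blood cell development, was not called in either line. It had 4017, 2891 and 3089.8 normalised reads in PRC1CKO UNT and 3181, 3179 and 3262 in PRC1CKO OHT cells, 3531, 3074 and 3046 in PRC1CPM UNT and 3843, 2591 and 3651 in PRC1CPM OHT cells. Treated and untreated values overlapped in both lines. Log2 fold changes of Mysm1 were -0.04 (-0.45 to 0.37) and 0.05 (-0.37 to 0.46), with adjusted p = 0.941 and 0.957 (limma). Its share of reads on the 5 enzyme genes was 45.3% ± 1.0 and 41.2% ± 1.4 in PRC1CKO UNT and OHT cells and 44.0% ± 0.74 and 41.2% ± 1.0 in PRC1CPM UNT and OHT cells, and the treated and untreated shares did not overlap. The share of each enzyme gene can move because another gene of the set moved, so these shares too are a description.

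**Figure D4:**
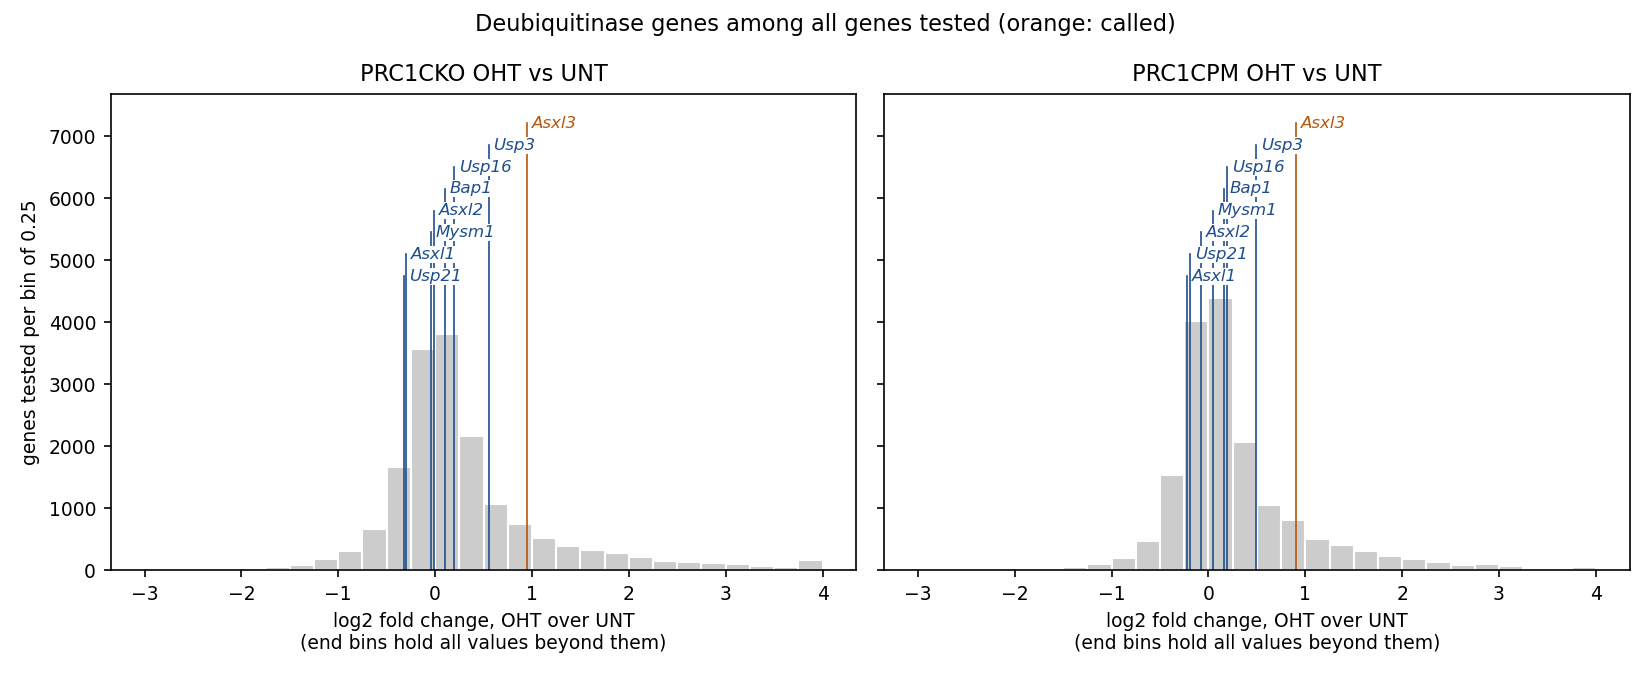
Number of genes tested per bin of log2 fold change after OHT treatment (vertical axes) against the log2 fold change (horizontal axes), in PRC1CKO (left) and PRC1CPM cells (right). Vertical lines place the 8 genes, with Asxl3, the member that was called, in orange. Asxl3 and Usp3 lie above the medians of 0.12 and 0.10, Asxl1 and Usp21 lie below them, and the other 4 genes are nearer to them.

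Per kilobase of gene body, Bap1 had the highest level in every condition, at 172 ± 38 (SD, n = 3) normalised reads per kb in PRC1CKO UNT cells, and Asxl3 the lowest, at 3.02 ± 0.74. Between them came Asxl1 (116 ± 14), Usp21 (95.4 ± 13), Mysm1 (89.9 ± 16), Asxl2 (63.0 ± 7.1), Usp16 (35.0 ± 7.4) and Usp3 (12.8 ± 2.4). Bap1 and Asxl1 did not overlap in any of the 4 conditions, and neither did Usp16 and Usp3 or Usp3 and Asxl3. Usp21 and Mysm1 overlapped in 3 of the 4 conditions and changed places in PRC1CKO OHT cells, Asxl1 and Usp21 overlapped in both PRC1CPM conditions, and Asxl2 and Usp16 overlapped in PRC1CPM OHT cells. These are ranges over libraries whose scale moves all genes together, so an overlap does not by itself mean that the order changed within a library. Reads of long genes are spread over introns, which makes the order depend on the length used. Per kilobase of exons the order in PRC1CKO UNT cells was Asxl1 (962), Asxl2 (558), Mysm1 (449), Bap1 (427), Usp16 (342), Usp21 (262), Usp3 (184.5) and Asxl3 (47.8), so Asxl3 was the lowest on both scales and Bap1 the highest on that of the gene body alone. After OHT treatment Asxl3 reached 5.77 ± 0.89 reads per kb of gene body in PRC1CKO and 4.47 ± 0.73 in PRC1CPM cells, and it kept the last place.

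**Figure D5:**
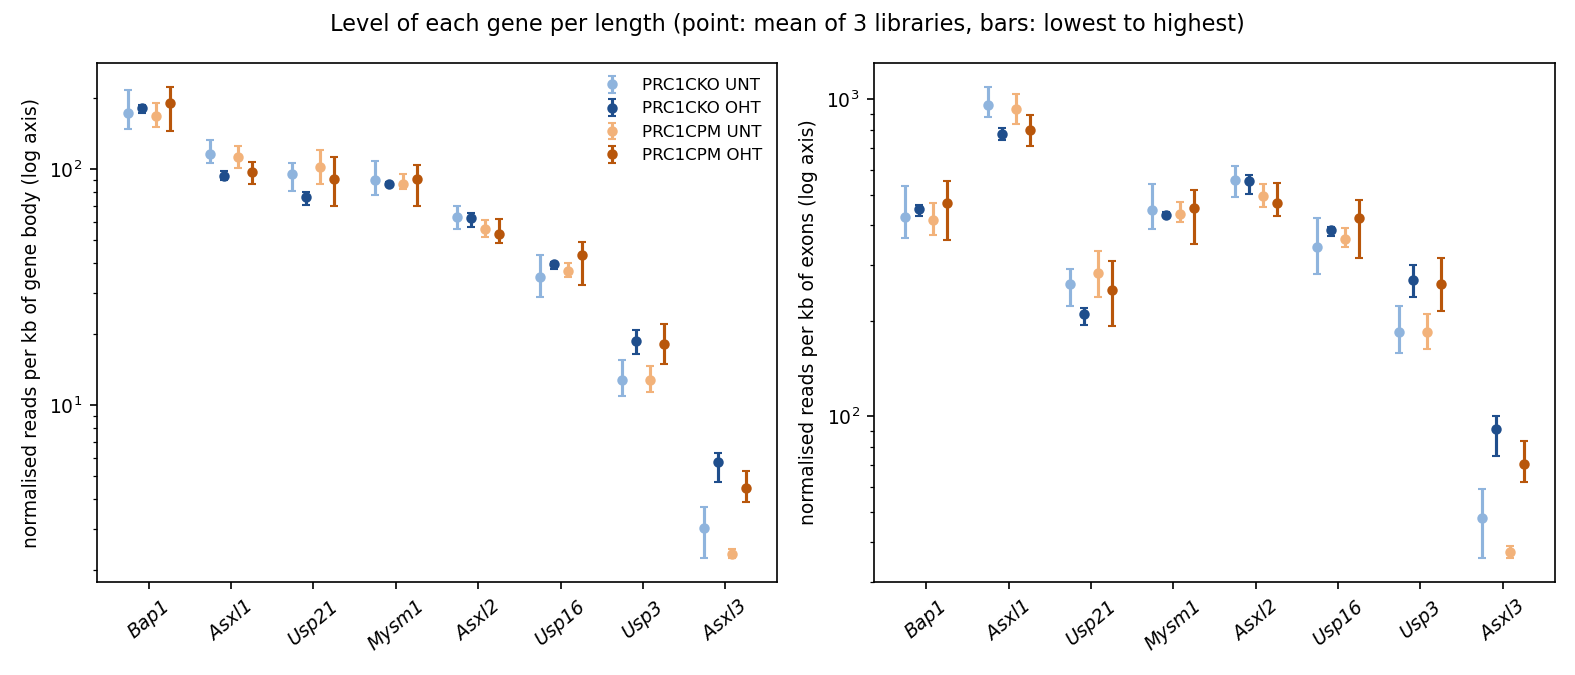
Normalised reads per kb of gene body (left) and per kb of exons (right), both on log axes, for the 8 genes (horizontal axes) in the 4 conditions. Points are means of 3 libraries and bars run from the lowest to the highest library. Asxl3 is the lowest gene in every condition on both scales.

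Whether loss of PRC1 and loss of its catalysis alone acted differently on these genes was addressed by the interaction of line and treatment, which reuses the libraries of both comparisons above. No member was called (0 of 8 at an adjusted p below 0.05 and 0 at an unadjusted p under 0.05 with limma, and 0 with edgeR or DESeq2), beside 0.0236% of all genes (4 lower and 0 higher), and 497 genes had an unadjusted p under 0.05. The difference between the lines in the log2 fold change of Asxl3 was -0.04 (SE 0.34, -0.72 to 0.64, adjusted p = 0.9999), that of Usp3 was -0.06 (SE 0.32, -0.69 to 0.58) and that of Usp21 was 0.12 (SE 0.35, -0.57 to 0.82). With replicate number as a block the SEs of these differences were 0.21, 0.19 and 0.22, and 324 genes were called for the interaction, again without a member.

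Treated PRC1CPM cells were also compared directly with treated PRC1CKO cells, and the untreated lines with each other. In both comparisons 0 of the 8 genes were called by limma, edgeR or DESeq2, and 0 had an unadjusted p under 0.05 (beside 1862 and 2391 of the 16940 genes tested), where limma called 1.25% of all genes higher and 0.218% lower (1.47% in all) between the treated lines and 2.21% higher and 0.478% lower (2.69% in all) between the untreated lines. The 212 genes higher and 37 lower between the treated lines became 524 and 261 on the TMM scale, and the 374 and 81 between the untreated lines became 745 and 305. With replicate number as a block 1363 and 1884 genes were called in these comparisons, and still 0 members. Asxl3 differed by -0.37 (SE 0.24, -0.85 to 0.11, adjusted p = 0.666) on the log2 scale between the treated lines and by -0.33 (SE 0.24, -0.81 to 0.16, adjusted p = 0.653) between the untreated lines, PRC1CPM relative to PRC1CKO. On the TMM scale these differences of Asxl3 were -0.47 (adjusted p = 0.0444) and -0.44 (adjusted p = 0.0507), both under the limit of 1.5-fold. On the spike-in scale Usp3 differed by -0.05 and 0.00 and Usp21 by 0.23 and 0.10 between the treated and the untreated lines, and on the TMM scale Usp3 by -0.16 and -0.11 and Usp21 by 0.12 and -0.013.

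The other genes of the pathway were followed in lists. Over all genes tested, 16.5% were called higher and 3.09% lower in PRC1CKO cells, and 13.1% and 1.4% in PRC1CPM cells. None of the 7 PR-DUB partner genes tested (Foxk1, Foxk2, Hcfc1, Ogt, Kdm1b, Mbd5 and Mbd6) was called in either line by limma, edgeR or DESeq2, and 1 had an unadjusted p under 0.05 in each line. The largest change in this list was that of Mbd5, which encodes a methyl-CpG-binding-domain protein, at 0.52 in PRC1CKO (adjusted p = 0.0726) and 0.52 in PRC1CPM cells (adjusted p = 0.0873). Of 14 other histone deubiquitinases and their partners, 0 were called in PRC1CKO cells by limma, edgeR or DESeq2 (1 on the TMM scale and 1 at an unadjusted p under 0.05) and 1 was lower in PRC1CPM cells. The latter was Usp51, an H2A deubiquitinase gene, which fell by 0.94 on the log2 scale (SE 0.30, adjusted p = 0.0215) from a mean of 297 to 153 normalised reads. In PRC1CKO cells the largest change of this list was that of Usp44, at -0.50 (adjusted p = 0.138).

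Among 7 genes for histone H2A ubiquitin ligases, Ring1 and Rnf2 included, 0 were called in either line by limma, edgeR or DESeq2, and 0 had an unadjusted p under 0.05. Their largest changes were 0.20 (Ring1) in PRC1CKO and -0.22 (Rnf168, a ligase of the DNA damage response) in PRC1CPM cells. Of 6 genes for proteins that bind H2AK119ub1, 1 was called higher in each line, beside 16.5% of all genes in PRC1CKO and 13.1% in PRC1CPM cells. This was Jarid2, a PRC2 cofactor, with a log2 fold change of 0.72 (SE 0.20, adjusted p = 0.00646) in PRC1CKO and 0.66 (SE 0.20, adjusted p = 0.0181) in PRC1CPM cells, the latter lost on the TMM scale. The list medians, in PRC1CKO and PRC1CPM cells, were -0.16 and -0.02 for the PR-DUB partners, 0.05 and 0.01 for the other histone deubiquitinases, -0.10 and -0.14 for the ligases and 0.13 and 0.25 for the H2AK119ub1-binding proteins, beside 0.12 and 0.10 over all genes.

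In the enzyme families themselves, 45 USP genes other than the members were tested. Of these, 3 were called higher and 2 lower in PRC1CKO and 1 higher and 3 lower in PRC1CPM cells. Over all genes tested, the shares called higher and lower were 16.5% and 3.09% in PRC1CKO and 13.1% and 1.4% in PRC1CPM cells. Usp9y, a Y-linked gene, rose in both lines (log2 fold change 3.47, SE 0.39, adjusted p = 5.44e-10, and 3.34, SE 0.39, adjusted p = 4.35e-09), from means of 31.0 to 305 and of 40.5 to 408 normalised reads. Usp11 fell by 1.02 and 1.09 on the log2 scale (SE 0.22, adjusted p = 0.000366 and 0.000225), from means of 1984 to 959 and of 2653 to 1254. Usp28, which stabilises MYC, fell by 0.99 and 0.68 (SE 0.20, adjusted p = 0.000143 and 0.0144). Usp51, also on the list above, was the third gene lower in PRC1CPM cells. Usp18, an interferon-induced protease for ISG15, was called higher in PRC1CKO cells at a mean of 0.513 untreated and 8.68 treated, too few reads for a fold change to be given. The USP median was 0.06 in PRC1CKO and 0.05 in PRC1CPM cells.

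No other gene of the BAP1 family (UCH, 3 tested) was called in either line by limma, edgeR or DESeq2, and 0 had an unadjusted p under 0.05. The largest changes in that family were those of Uchl1, -0.11 and -0.24. In the MYSM1 family (JAMM, 10 tested) 1 gene was called higher in PRC1CKO cells, beside 16.5% of all genes. In PRC1CPM cells 0 were called by limma and 0 by edgeR, 1 by DESeq2 and 1 on the TMM scale, and 2 had an unadjusted p under 0.05. The gene called in PRC1CKO cells was Psmd14, the deubiquitinase of the proteasome lid, with a log2 fold change of 0.63 (SE 0.20, adjusted p = 0.0189) in PRC1CKO cells, and the call was lost on the TMM scale. The largest change of the family in PRC1CPM cells was that of Stambpl1, 0.74 (SE 0.28, adjusted p = 0.0648). The medians were -0.10 and -0.14 for the UCH and -0.09 and -0.09 for the JAMM genes.

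By their pattern over the 12 libraries, the genes most like Asxl3 among 12969 with a mean of at least 100 normalised reads were Magi3 (Pearson r 0.988), Nrip1 (0.982) and Gata4 (0.981), and 431 genes had an r above 0.9. These libraries share 4 conditions and 1 scale, so the values are a description. Gata4 went from a mean of 164 to 670.5 normalised reads in PRC1CKO and from 123 to 388 in PRC1CPM cells.

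Gata4 is also a marker of primitive endoderm. All 5 genes of that list (Gata4, Gata6, Sox17, Foxa2 and Pdgfra) were called higher in both lines, beside 11.6% of all genes. Their summed level was 1139.5, 606 and 398 normalised reads in replicates 1, 2 and 3 of PRC1CKO UNT and 3687, 2750.0 and 2587 in PRC1CKO OHT cells. In PRC1CPM cells the sum was 433, 345 and 442 before and 1586, 984 and 1432 after treatment, and no gene of the list was at 0. Pdgfra was the most abundant, with means of 359.9 and 1128 in PRC1CKO UNT and OHT cells and 198 and 549 in PRC1CPM UNT and OHT cells. Neural markers had mean sums of 846 and 1837 in PRC1CKO UNT and OHT cells and 1110 and 1623 in PRC1CPM UNT and OHT cells, most of it from Nes, which was called in PRC1CKO cells alone, while Pax6 was called higher in both lines and Sox1 in neither (133 and 110.2 in PRC1CKO UNT and OHT cells). Mesoderm markers had mean sums of 150 and 413 and of 165 and 415, with T and Eomes called higher in both lines and Mixl1 in neither. Fibroblast markers, led by Col1a1, had mean sums of 3449 and 3515 in PRC1CKO UNT and OHT cells and of 7584 and 8478 in PRC1CPM UNT and OHT cells. Replicate 1 carried much of the latter, with 14446 (UNT) and 14738 (OHT), and without replicate 1 the means were 2347 and 3308 in PRC1CKO and 4153 and 5349 in PRC1CPM UNT and OHT cells. Thy1 of this list was called higher in PRC1CKO cells, with a log2 fold change of 0.65. Col3a1 (-0.88) and Col1a2 (-0.17) went the other way there, Col1a1 was at 0.14, and none of these was called. In PRC1CPM cells the log2 fold changes were 0.50 (Col1a1), 0.27 (Thy1), -0.32 (Col3a1) and -0.81 (Col1a2), none of them called. The mesoderm mean of PRC1CKO UNT cells was 93.5 without its replicate 1. Of the haematopoietic markers in the table, Ptprc averaged 1.56 or less in every condition, and Cd79a averaged 16.1 and 20.7 in PRC1CKO UNT and OHT cells and 24.1 and 33.2 in PRC1CPM UNT and OHT cells and was not called. Of the pluripotency markers Sox2 was called lower in PRC1CKO cells, with a log2 fold change of -0.89, and none was called in PRC1CPM cells. The part of such shifts in the change of Asxl3 was not tested, and in bulk RNA more cells of a type and more RNA per cell cannot be told apart.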

How the data were processed

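Labels gave the line, treatment and replicate number of the 12 cRNA-seq libraries. The matched gDNA-seq samples were not analysed here. The authors removed rDNA reads, aligned the rest to mm10 and dm6 with STAR and Bowtie 2, kept unique reads, removed PCR duplicates and counted reads over gene bodies. The deposited signal is the read count divided by a spike-in size factor, corrected by the authors with gDNA-seq. The deposited table also holds the authors' log2 fold changes and adjusted p-values, and a further file a gene list chosen from these libraries, and neither was used. Every value (100%) was a whole multiple of 1 step per library within 0.02 of a read, which gave back the reads. The test had been planned for either unit.

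With limma 3.58.1 (R 4.3.3), a model of 1 mean per condition and a variance trend was fitted to log2(normalised read count + 1) of the 16940 transcripts tested, and p-values were adjusted by Benjamini-Hochberg. Fold changes are on that scale. Calls needed an adjusted p below 0.05 together with a change of more than 1.5-fold, the interaction an adjusted p alone. edgeR 4.0.16 and DESeq2 1.42.0 on the recovered reads, the TMM scale, no filter, a pseudocount of 0.1, a fold change above 2, each line alone, the replicate block and each library left out were alternatives. Scripts were tested on simulated data.

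Same-numbered libraries deviated together (mean r 0.205 over 18 pairs, -0.102 over 36 pairs with different numbers). In PRC1CPM cells all 3 pairs of OHT and UNT libraries exceeded an r of 0.1 (0.246 to 0.438), as did all pairs between the lines within a treatment, whereas 1 pair in PRC1CKO cells was at 0.0988. The labels do not say that a number marks a shared day. Replicates are described as biological in the study's methods.

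The members, lists and comparisons were chosen with earlier results of these data known. Named genes were the 8 members and, in each pathway list and line, those called (at most the 4 largest changes) or else the gene with the largest change, and cell type markers came from lists of their own. Promoters are from RefSeq. One list of genes is not reported here.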

Additional observations from a re-analysis of the deposited data

How the results depend on the processing

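Asxl3 was called in 20 of 21 alternatives in each line, with adjusted p from 1.56e-09 to 0.0468 in PRC1CKO and from 1.37e-08 to 0.0395 in PRC1CPM cells, and the number of members called fell to 0 and 0 at a fold change above 2 because its changes lie under that limit. Leaving out a library gave 1 to 2 members called in PRC1CKO cells, 2 being without PRC1CKO UNT replicate 1 (Usp3). The TMM scale, which sets the median of all genes near 0, gave 2845 genes higher and 1133 lower in PRC1CKO (2787 and 524 on the spike-in scale) and 2396 and 595 in PRC1CPM cells (2226 and 237). The block gave 3435 and 823 and 3033 and 461, and a fold change above 2 gave 271 and 125 lower. Lower genes in PRC1CKO cells were 326 without PRC1CKO UNT replicate 1 and 329 without PRC1CKO OHT replicate 2. In PRC1CPM cells they were 140 and 132 without PRC1CPM UNT replicates 1 and 3 and 123 and 152 without PRC1CPM OHT replicates 2 and 3, and higher genes were 1439 without PRC1CPM OHT replicate 1. On the TMM scale Usp3 had adjusted p of 0.00139 and 0.00441 at log2 fold changes of 0.43 and 0.39, Asxl1 of 0.0043 and 0.0265 at -0.42 and -0.33, and Usp21 of 0.00672 and 0.0585 at -0.44 and -0.30, all under the fold limit. With TMM and the block Asxl3 and Asxl2 had adjusted p of 0.0166 and 0.01 between the treated and 0.021 and 0.0221 between the untreated lines, also under it.

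Genes called for the interaction (4) were 15 with DESeq2, 14 with TMM, 0 with no filter and 1 with a pseudocount of 0.1. Between the treated lines (249) they were 429 with DESeq2, 785 with TMM and 157 with no filter, and between the untreated lines (455) 1050 with TMM. The replicate block gave 324, 1363 and 1884, and the block with TMM, added after seeing the data, 254, 1151 and 1470 for the same 3 comparisons. The block changed no call of a member in any comparison. With a library left out the ranges were 1 to 28 (interaction), 116 to 477 (treated lines) and 244 to 1570 (untreated lines). The highest of each came without PRC1CKO UNT replicate 1. Moves beyond 1.5 times also came, for the treated lines, without PRC1CKO OHT replicates 2 (116) and 3 (164), PRC1CPM OHT replicates 1 (126) and 3 (153), PRC1CKO UNT replicate 2 (408) and PRC1CPM UNT replicates 1 (432) and 2 (416). For the untreated lines they came without PRC1CKO UNT replicates 2 (273) and 3 (244) and PRC1CPM UNT replicates 1 (302), 2 (706) and 3 (294). For the interaction they came without PRC1CKO OHT replicate 1 or PRC1CPM OHT replicates 2 or 3 (1 each), PRC1CPM UNT replicates 1 (9) and 2 (14) and PRC1CKO UNT replicate 2 (12). No member was called in any of these 3 comparisons under any alternative. The cause of these shifts was not tested.

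Some uncalled members changed sign. With TMM, with or without the block, Bap1 was -0.022 in PRC1CKO cells, Mysm1 was -0.062 in PRC1CPM cells, and Usp3 and Usp21 were -0.11 and -0.013 between the untreated lines, where Usp16 (-0.014) also turned. Asxl1 (-0.056), Bap1 (-0.057), Mysm1 (-0.055) and Usp16 (-9.94e-05) turned between the treated lines. Usp3 was -0.00337 with DESeq2 and -0.00369 with edgeR between the untreated lines. With a library left out, ranges that crossed 0 were -0.10 to 0.065 (Asxl2), -0.0022 to 0.27 (Bap1) and -0.14 to 0.10 (Mysm1) in PRC1CKO cells and -0.062 to 0.22 (Mysm1) in PRC1CPM cells. In the 3 other comparisons, all 8 (interaction), 5 (treated lines) and 6 (untreated lines) of the members took both signs. For the interaction the ranges were -0.21 to 0.15 (Asxl3), -0.21 to 0.075 (Usp3) and -0.045 to 0.30 (Usp21), for Usp3 -0.20 to 0.077 between the treated and -0.10 to 0.15 between the untreated lines, and for Usp21 -0.020 to 0.22 between the untreated lines. A spike-in scale without the gDNA-seq correction was not run, and no member had a further row to try. Depth was 307 or more reads per library for each member, and the intervals carry the spread between replicates as well as counting error.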
